A study of Mus musculus with 6 samples.

Results

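The genes described here activate or import fatty acids, for most of them long-chain fatty acids. They are 10 members of the superfamily of acyl-CoA synthetases in all: the long-chain synthetases Acsl1, Acsl3, Acsl4, Acsl5 and Acsl6, the related enzymes Acsbg1 and Acsf2, and the fatty acid transport proteins Slc27a1, Slc27a2 and Slc27a4. They were chosen by symbol, as members of these gene families, with earlier results of these data known. Of these 10, 8 had an array row annotated to their symbol alone and were measured, among 19938 genes tested. Acsl1 had no such row and Acsl3 shares its row with Utp14b, so neither was analysed here. Acsf2 had 2 rows, of which the one with the higher mean over the 6 arrays was used, and the other 7 measured genes had 1 row each.

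The samples are scrapings of the mucosa of the jejunum, the middle part of the small intestine. The groups were 3 ISR2 arrays, from transgenic mice on the C57/BL strain with SREBP2 overactivation specific to the intestine, and 3 wild type (WT) arrays from littermates on the same strain. All mice were 8 to 10 weeks old, ate chow and drank freely. Neither the promoter nor the construct of the transgene is named in the sources used, and no label states that the arrays of a group came from different mice.

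A long-chain fatty acid cannot enter most pathways until an acyl-CoA synthetase has joined it to coenzyme A at the cost of ATP. The acyl-CoA that results is the substrate for triglyceride, phospholipid and cholesteryl ester synthesis, for elongation and for oxidation. Enterocytes of the jejunum take up large amounts of fatty acid from digested fat and repackage it as triglyceride. Slc27a transport proteins are themselves acyl-CoA synthetases, and activating the fatty acid holds it inside the cell. SREBP2 activates transcription of the enzymes that make cholesterol and of the LDL receptor, and its relative SREBP1 drives fatty acid synthesis.

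A promoter window of each of the 3 genes that passed the test below is shown because the groups differed in these genes and a transcription factor is what was altered in the mice. Slc27a1 has 3 windows, of which the one with a match is shown and the other 2 held no match to any motif searched. Each runs from 250 bases before to 50 bases after a start of the gene in RefSeq (GRCm38.p6), along the strand of the gene. Capitals mark an E-box (CACGTG) in Slc27a1, and in Acsl4 a stretch that differs by 1 base from the sterol regulatory element as searched here (TCACNCCAC). No capitals appear in Slc27a4 because neither was found in its window.
Acsl4, chrX:142390486-142390785, minus strand: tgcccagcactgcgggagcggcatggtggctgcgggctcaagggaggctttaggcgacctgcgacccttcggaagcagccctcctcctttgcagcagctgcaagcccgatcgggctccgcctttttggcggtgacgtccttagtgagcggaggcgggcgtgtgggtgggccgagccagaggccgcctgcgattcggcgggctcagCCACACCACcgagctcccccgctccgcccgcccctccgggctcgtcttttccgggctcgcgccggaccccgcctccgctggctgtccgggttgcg
Slc27a1, chr8:71570344-71570643, plus strand: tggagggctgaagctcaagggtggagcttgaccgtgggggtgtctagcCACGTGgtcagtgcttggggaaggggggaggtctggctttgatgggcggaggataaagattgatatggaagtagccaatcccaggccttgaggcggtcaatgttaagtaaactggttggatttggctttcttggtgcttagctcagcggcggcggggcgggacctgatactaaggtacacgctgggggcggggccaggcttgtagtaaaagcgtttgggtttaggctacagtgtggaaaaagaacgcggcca
Slc27a4, chr2:29802384-29802683, plus strand: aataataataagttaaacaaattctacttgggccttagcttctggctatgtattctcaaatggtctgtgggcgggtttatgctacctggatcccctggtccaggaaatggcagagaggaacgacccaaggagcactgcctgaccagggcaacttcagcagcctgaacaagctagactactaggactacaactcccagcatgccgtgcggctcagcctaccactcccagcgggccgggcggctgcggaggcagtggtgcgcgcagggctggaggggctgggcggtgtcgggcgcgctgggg

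All 10 genes had at least 1 window in the RefSeq table, 15 in all. The search covered both strands. An exact match to the sterol element stood in 1 of the 15 windows, the second one of Acsl1 (chr8:46490716-46491015), against 1.24% of the 32851 windows of all genes. With up to 1 mismatch, 5 of the 15 windows matched, against 24.2% of all windows. In Acsl4 this stretch began at base -45 relative to the start and read CCACACCAC. Other stretches with 1 mismatch stood in the window of Acsf2 (1) and that of Acsl5 (2), whose changes did not pass the test, and in the first window of Acsl1 (1). The E-box stood in 1 of the 15 windows, in 1 of the 3 windows of Slc27a1, against 7.15% of all windows. The PPAR response element of direct repeat type, with up to 2 mismatches, was in none of the 15 and in 3.86% of all windows. The exact match of Acsl1 also counts among those with up to 1 mismatch. A match describes letters in the window only.

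Levels are given on the log2 scale, as RMA returned them to the authors, so a difference of 1 is a 2-fold change. A gene was called when limma's Benjamini-Hochberg adjusted p over all 19938 genes was under 0.05. Of the 8 measured genes, 2 rose (Acsl4 and Slc27a1), 1 fell (Slc27a4) and 5 did not pass. Among all genes tested 3.02% were called, 1.79% as rises and 1.23% as falls. The median log2 change of the 8 was -0.10, against -0.06 over all genes. Their median absolute log2 change was 0.37, against 0.14 over all genes. The 3 ISR2 arrays lay on 1 side of the 3 WT arrays in 6 of the 8, and in 19.8% of all genes.

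**Figure D1:**
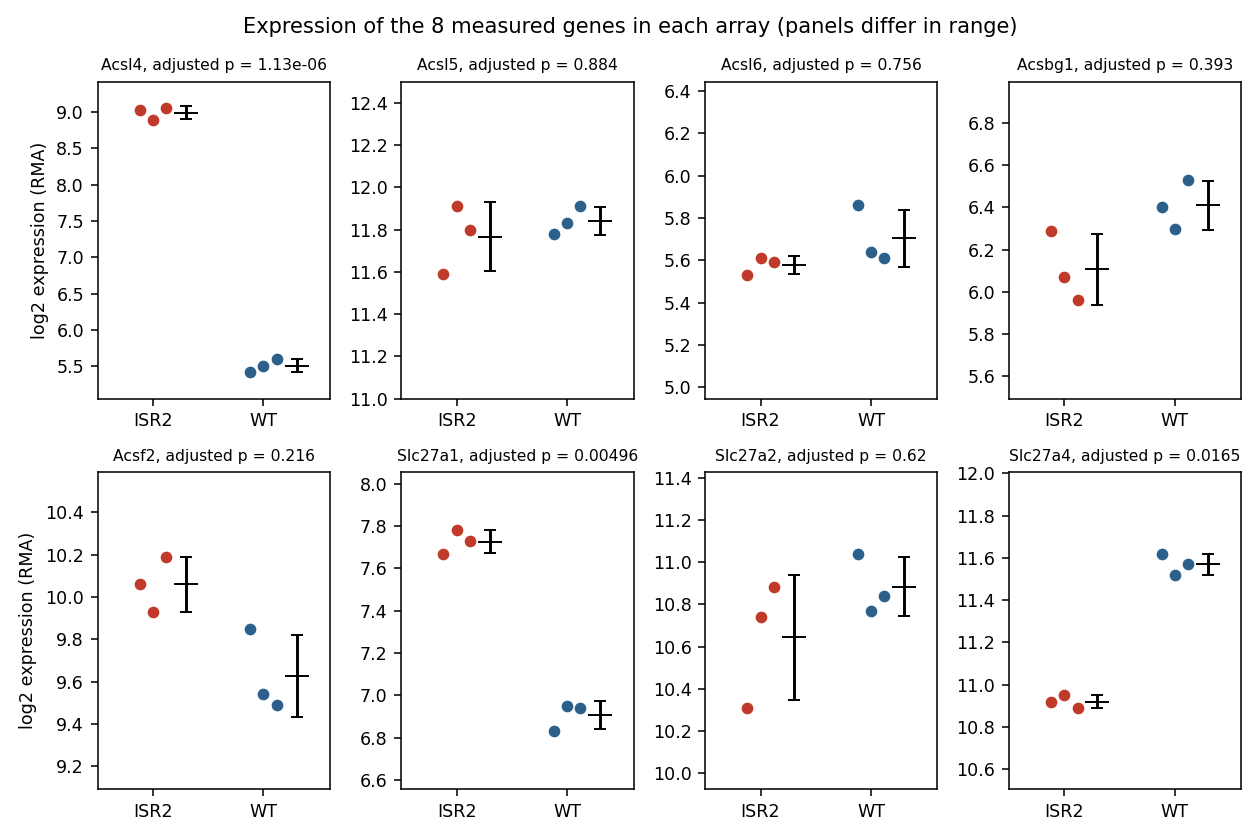
Log2 expression (RMA) of the 8 measured genes, 1 point per array, with ISR2 at the left and WT at the right of each panel and the mean and SD (n = 3) beside the points. Each panel has its own range, and the widest separation is that of Acsl4, at 8.88 to 9.05 in ISR2 and 5.42 to 5.60 in WT.

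Acsl4, the synthetase known for its preference for arachidonic acid and other polyunsaturated fatty acids, had by far the largest change of the 8. Its log2 level was 9.03, 8.88 and 9.05 in ISR2 replicates 1, 2 and 3, against 5.42, 5.51 and 5.60 in WT replicates 1, 2 and 3. The groups lay far apart and each was tight. Mean levels were 8.99 ± 0.10 in ISR2 and 5.51 ± 0.09 in WT (SD, n = 3 each). The probe signal rose 11.1-fold (log2 change 3.48 ± 0.12, SE; 95% interval 3.20 to 3.76; adjusted p = 1.13e-06), the 7th smallest p and the 17th largest log2 rise of all genes tested.

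The level of Acsl4 in WT mucosa was not shown to be above background, so the fold, its interval and its rank are those of the probe signal, and the fold of the transcript is not known from them. The 1194 olfactory and vomeronasal receptor genes of the array, taken as genes not used in jejunum, had mean log2 levels with a 95th percentile of 5.55, and the WT mean of Acsl4 lay under it. Acsl4 lies on the X chromosome. Xist, the RNA of the inactive X chromosome, stood at 3.92 to 4.07 in ISR2 and 4.05 to 4.11 in WT. The Y-linked genes were Eif2s3y (7.99 to 8.20 in ISR2, 7.82 to 8.38 in WT), Kdm5d (7.24 to 7.48, 7.25 to 7.42) and Uty (6.63 to 7.08, 6.51 to 7.02). The groups overlapped in each. In all 6 arrays Xist lay under the 95th percentile of the receptor genes and the Y-linked genes lay above it. These sex-linked genes were named after their values were seen.

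Acsl5 is the long-chain synthetase best known from the enterocyte, where it resides on the endoplasmic reticulum and mitochondria. It was at 11.59, 11.91 and 11.80 in ISR2 replicates 1, 2 and 3, against 11.78, 11.83 and 11.91 in WT replicates 1, 2 and 3. The groups overlapped. The log2 change was -0.07 ± 0.13 (SE; 95% interval -0.37 to 0.23; adjusted p = 0.884), and it was 0.02 without ISR2 replicate 1, the lowest array. Within each array, the log2 level of Acsl4 relative to Acsl5 was higher in ISR2 by 3.55, with a spread of 0.24 in ISR2 and 0.03 in WT (SD, n = 3 each). This difference too rests on a WT signal of Acsl4 not shown to be above background. The groups did not overlap in it, and a two-sided exact permutation test gave p = 0.1, the smallest that 3 against 3 arrays allow.

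Acsl6, a synthetase known from brain, was dim. It measured 5.53, 5.61 and 5.59 in ISR2 replicates 1, 2 and 3, against 5.86, 5.64 and 5.61 in WT replicates 1, 2 and 3. The ISR2 arrays lay just under the lowest WT array, and the means of both groups lay just above the 95th percentile of the receptor genes. The log2 change was -0.13 ± 0.13 (SE; 95% interval -0.41 to 0.16; adjusted p = 0.756). Acsbg1, the bubblegum synthetase of brain and steroid-forming tissues, measured 6.29, 6.07 and 5.96 in ISR2 replicates 1, 2 and 3, against 6.40, 6.30 and 6.53 in WT replicates 1, 2 and 3. All ISR2 arrays were under all WT arrays. The log2 change of -0.30 ± 0.14 (SE; 95% interval -0.61 to 0.01) did not pass (adjusted p = 0.393).

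Acsf2, a mitochondrial acyl-CoA synthetase, was at 10.06, 9.93 and 10.19 in ISR2 replicates 1, 2 and 3, against 9.85, 9.54 and 9.49 in WT replicates 1, 2 and 3. Each ISR2 array was above each WT array. The log2 change of 0.43 ± 0.14 (SE; 95% interval 0.11 to 0.76) did not pass (adjusted p = 0.216). Its other row gave 9.65, 9.64 and 9.89 in ISR2 replicates 1, 2 and 3, against 9.39, 9.05 and 9.14 in WT replicates 1, 2 and 3. That row pointed the same way, with a log2 change of 0.53 ± 0.15 (SE; adjusted p = 0.205 in the limma fit of all rows). Both rows are annotated with the same transcripts, so they are not independent measurements.

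Of the 3 transport proteins 1 rose, 1 fell and 1 did not pass. Slc27a1, known as FATP1 of muscle and fat, was at 7.67, 7.78 and 7.73 in ISR2 replicates 1, 2 and 3, against 6.83, 6.95 and 6.94 in WT replicates 1, 2 and 3. The groups did not overlap, and their spread was small. It rose 1.77-fold (log2 change 0.82 ± 0.12, SE; 95% interval 0.56 to 1.09; adjusted p = 0.00496), with means of 7.73 ± 0.05 in ISR2 and 6.91 ± 0.07 in WT (SD, n = 3 each). The limma call held without each array in turn (adjusted p up to 0.0326).

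Slc27a4, known as FATP4, is the transport protein best known from the enterocyte of the small intestine. It was at 10.92, 10.95 and 10.89 in ISR2 replicates 1, 2 and 3, against 11.62, 11.52 and 11.57 in WT replicates 1, 2 and 3. Again the groups did not overlap. It was 1.57-fold lower in ISR2 (log2 change -0.65 ± 0.11, SE; 95% interval -0.91 to -0.39; adjusted p = 0.0165). The size of the change lay between -0.67 and -0.60 under all 17 alternatives tried, though only array weights, scaling and the arrays included can alter it. The call was not stable. It was lost without ISR2 replicate 1 or 3 and without WT replicate 1, 2 or 3 (adjusted p = 0.0874, 0.0607, 0.0862, 0.0567 and 0.0602 in this order), and with all rows tested (0.0504).

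Slc27a2, the very long-chain synthetase of liver and kidney known as FATP2, was at 10.31, 10.74 and 10.88 in ISR2 replicates 1, 2 and 3, against 11.04, 10.77 and 10.84 in WT replicates 1, 2 and 3. ISR2 replicate 1 was low and the other ISR2 arrays fell within or near the WT range. The log2 change was -0.24 ± 0.17 (SE; 95% interval -0.62 to 0.14; adjusted p = 0.62), and from -0.46 to -0.08 under the alternatives. The contrast between Slc27a1 and Slc27a4 was also taken within each array, where scaling between arrays cancels. The log2 level of Slc27a1 minus that of Slc27a4 was -3.25, -3.17 and -3.16 in ISR2 replicates 1, 2 and 3, against -4.79, -4.57 and -4.63 in WT replicates 1, 2 and 3. The difference of the means was 1.47, and the groups did not overlap (two-sided exact permutation p = 0.1, the smallest this design allows). Slc27a1 with Slc27a4 and Acsl4 with Acsl5 were the 2 pairs compared, and the Benjamini-Hochberg adjusted value of each exact test was 0.1. Each pair holds a gene called above and reuses the values that made the call. The lack of overlap in the 2 pairs is therefore no separate support for the calls.

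**Figure D2:**
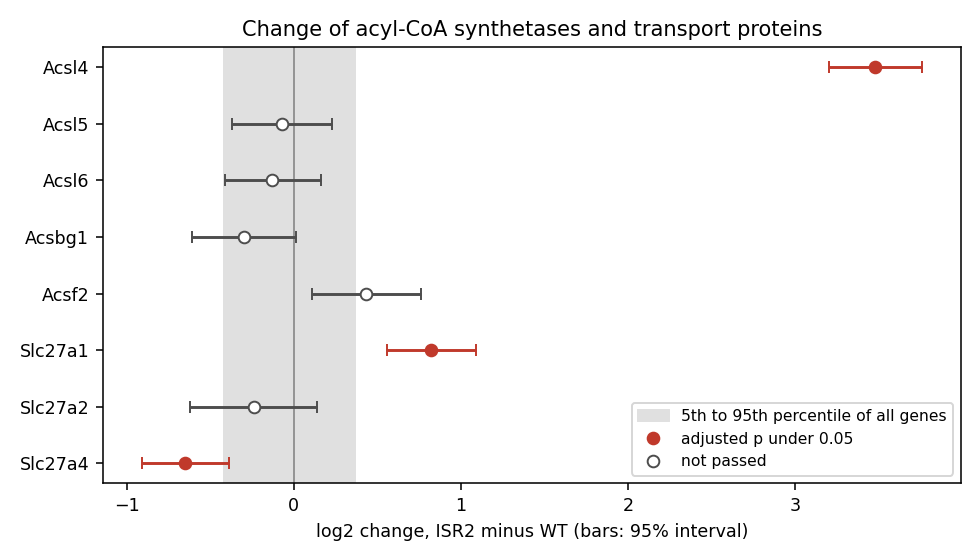
Log2 change of each measured gene, ISR2 minus WT, with its 95% interval from limma. Filled points passed an adjusted p of 0.05, and the grey band spans the 5th to 95th percentile of the log2 change of all genes (-0.42 to 0.36); Acsl4 lies at 3.48, Slc27a1 at 0.82 and Slc27a4 at -0.65.

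Markers of the cells in the scrapings were measured beside these genes. Markers of the enterocyte were bright in all 6 arrays, and their list mean was 12.43, 12.69 and 12.58 in ISR2 replicates 1, 2 and 3, against 12.94, 12.93 and 12.90 in WT replicates 1, 2 and 3. Of its 12 members 2 fell, the peptide transporter Slc15a1 (-1.21) and the alkaline phosphatase Alpi (-0.77), and 10 did not pass. Among these 10, the groups overlapped in Sis (0.14), Mttp (-0.09), Fabp2 (-0.03) and Slc5a1 (-0.03; log2 changes). In the others of the 10, all ISR2 arrays lay under all WT arrays. In limma 6 of the 12 had an unadjusted p under 0.05, against 13.1% of all genes. The list mean, to which its members contributed unevenly, was lower in ISR2 by a log2 difference of -0.36, in the direction of Slc27a4. Relative to that mean in each array, Slc27a4 was at -1.74 to -1.51 in ISR2 and -1.41 to -1.32 in WT. The group means of this log2 difference differed by -0.29. It reuses the Slc27a4 values that made the call, and the list is uneven, so it does not adjust for enterocyte content. The part of the enterocyte markers in the fall of Slc27a4 was not tested. In scrapings fewer cells of a type cannot be told apart from less RNA per cell.

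Markers of other cell types that scrapings can hold were also summarised, and their part in the changes of Acsl4 and Slc27a1 was not tested. The myeloid list mean was 6.63 to 7.31 in ISR2 and 6.98 to 7.33 in WT, where 1 of 7 genes (Cd14) rose. The other 6 did not pass, with Itgam at 0.05 and the rest between -0.59 (Lyz2) and -0.19 (Csf1r; log2 changes). The median log2 change of the myeloid list was -0.22. The list mean of smooth muscle and stroma was 7.92, 9.17 and 7.91 in ISR2 replicates 1, 2 and 3. In WT replicates 1, 2 and 3 it was 7.25, 9.79 and 7.76, so replicate 2 was the highest in both groups. The list mean of endothelium was 6.08 to 6.96 in ISR2 and 6.23 to 6.47 in WT. That of adipocytes was 6.27 to 7.14 in ISR2 and 6.54 to 6.83 in WT. No gene passed in the stroma, endothelial and adipocyte lists (10, 6 and 6 measured; limma), where 0, 1 and 2 had an unadjusted p under 0.05, and the groups overlapped in each list mean. The muscle genes of the stroma list varied widely between arrays, with an SE of the log2 change from 0.72 (Tagln) to 1.02 (Des). The lack of calls among them therefore says little. T cell and intraepithelial lymphocyte markers were lower, with 5 of 8 called and a list mean of 6.95 to 7.53 in ISR2 against 8.03 to 8.54 in WT. No member passed among B and plasma, goblet, Paneth, stem, enteroendocrine, tuft, neuronal and glial, or pancreatic acinar markers in limma. From 0 to 3 per list had an unadjusted p under 0.05, against 13.1% of all genes. The 3 were among the 5 Paneth markers, all of which had negative log2 changes (median -0.55).

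The genes that surround fatty acid activation were described by 6 lists, with 95 measured genes outside the 8. Of these 11 rose and 3 fell, or 14.7% called, against 3.02% of all genes tested, with a median log2 change of -0.01. The lists were chosen with earlier results of these data known. They also hold Srebf2, the gene of the overactivated factor, so the 2 shares are set side by side as description only. Among 15 other acyl-CoA synthetases, all measured, 2 rose and 13 did not pass (median 0.05). Acss2, which makes acetyl-CoA from acetate, had 11.41, 11.33 and 11.28 in ISR2 replicates 1, 2 and 3, against 7.62, 7.52 and 8.03 in WT replicates 1, 2 and 3, a 12.3-fold rise (adjusted p = 2.29e-06). Aacs, which makes acetoacetyl-CoA in the cytosol, rose 8.61-fold (log2 change 3.11 ± 0.19, SE; adjusted p = 2.37e-05). Both use substrates shorter than those of the long-chain family.

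Of the other Slc27a genes, Slc27a5, the bile acid and very long-chain synthetase of liver, measured 5.72, 5.61 and 5.84 in ISR2 replicates 1, 2 and 3, against 5.48, 4.86 and 4.98 in WT replicates 1, 2 and 3. The log2 change of 0.62 ± 0.17 (SE) missed the threshold (adjusted p = 0.128), and its WT mean of 5.11 lay within the range of the receptor genes. The medium-chain synthetase gene Acsm1 stood at -0.23 ± 0.15 (SE; adjusted p = 0.603), and at -0.13 without WT replicate 1 and -0.37 without WT replicate 2. Its means of 5.04 in ISR2 and 5.27 in WT both lay within the range of the receptor genes.

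Genes of fatty acid uptake and binding gave no call. None of 17 passed in limma, 5 had an unadjusted p under 0.05, against 13.1% of all genes, and the median log2 change was -0.03. The 4 with the smallest p were the acyl-CoA binding genes Acbd5 (0.39 ± 0.13), Acbd4 (-0.35 ± 0.13), Acbd3 (-0.34 ± 0.14) and Acbd6 (0.35 ± 0.14; log2 change and SE). Cd36, a fatty acid receptor and translocase of the brush border, was at 7.89, 8.93 and 8.28 in ISR2 replicates 1, 2 and 3, against 8.99, 8.72 and 8.36 in WT replicates 1, 2 and 3, and the groups overlapped. The fatty acid binding proteins of the enterocyte, Fabp1 and Fabp2, had log2 changes of 0.14 ± 0.12 and -0.03 ± 0.15 (SE). Cd36, Fabp1 and Fabp2 were named after their values were seen.

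Acyl-CoA thioesterases split acyl-CoA back into fatty acid and coenzyme A. Of 17 listed 16 were measured and none passed in limma, while 2 had an unadjusted p under 0.05 (median log2 change -0.00). Acot1, a cytosolic thioesterase, was at 5.91, 5.84 and 6.73 in ISR2 replicates 1, 2 and 3, against 5.15, 5.15 and 5.67 in WT replicates 1, 2 and 3. Its groups did not overlap, but both were wide (adjusted p = 0.156). The WT mean of Acot1, 5.32, lay within the range of the receptor genes. Acot10, Acot9 and Acot8 had log2 changes of 0.53 ± 0.15, 0.48 ± 0.25 and -0.23 ± 0.12 (SE). That of Acot9 was 0.22 without ISR2 replicate 2, 0.31 without WT replicate 3 and 0.05 without both.

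Enzymes that use long-chain acyl-CoA were measured in 23 of 26 cases, and of these 4 rose, 1 fell and 18 did not pass (median log2 change -0.11). In limma 11 of the 23 had an unadjusted p under 0.05, against 13.1% of all genes. Gpam, which begins glycerolipid synthesis by joining acyl-CoA to glycerol phosphate, was at 9.97, 9.84 and 9.84 in ISR2 replicates 1, 2 and 3, against 6.14, 6.72 and 6.90 in WT replicates 1, 2 and 3, a 9.85-fold rise (adjusted p = 1.7e-05). Elovl5, which lengthens polyunsaturated acyl-CoA, rose 7.97-fold (log2 change 2.99 ± 0.18, SE; adjusted p = 1.8e-05). Elovl6, which lengthens palmitoyl-CoA, rose 2.1-fold (adjusted p = 0.0172). That limma call was lost without ISR2 replicate 1, without WT replicate 1 and with all rows tested (adjusted p up to 0.0824). Elovl1, for saturated very long chains, rose 1.53-fold (adjusted p = 0.0293), and its limma call was lost without any 1 of the 6 arrays (up to 0.135).

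Dgat2, which makes triglyceride from diacylglycerol and acyl-CoA, was at 10.91, 11.40 and 11.00 in ISR2 replicates 1, 2 and 3, against 11.72, 11.94 and 11.77 in WT replicates 1, 2 and 3. It fell 1.63-fold (log2 change -0.70 ± 0.16, SE; adjusted p = 0.0494). This call stood at the threshold and was lost when any array but ISR2 replicate 2 was left out (adjusted p up to 0.213).

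The factors that act on these pathways were measured as a list of 12 of 13 genes. Of these 3 rose and 9 did not pass (median log2 change -0.06). In limma 7 of the 12 had an unadjusted p under 0.05, against 13.1% of all genes. Srebf2, which encodes SREBP2 itself, was at 11.02, 10.85 and 11.16 in ISR2 replicates 1, 2 and 3, against 9.04, 9.15 and 9.50 in WT replicates 1, 2 and 3. All ISR2 arrays were well above all WT arrays, a 3.43-fold rise (adjusted p = 0.000298). The sources used do not say whether the probes read the transgene, the native gene or both. Srebf1 rose 3.18-fold (adjusted p = 0.000395), and Insig1, a sterol-sensing retention protein and known SREBP target, rose 10.4-fold (adjusted p = 8.22e-07). Ppara, the fatty acid sensing nuclear receptor, had a log2 change of 0.48 ± 0.13 (SE; adjusted p = 0.111).

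Acsl1 and several Slc27a genes are known targets of PPAR alpha, so other targets were set beside them. Of 18 listed 16 were measured, and 2 rose, 2 fell and 12 did not pass (median log2 change 0.10). In limma 9 of the 16 had an unadjusted p under 0.05, against 13.1% of all genes. Ehhadh, of peroxisomal oxidation, rose 2.31-fold and Acadl, of mitochondrial oxidation, rose 2.02-fold. Vnn1, a pantetheinase that releases a precursor of coenzyme A, fell 7.28-fold and Angptl4, a lipase inhibitor, fell 2.1-fold. The adjusted p of these 4 lay between 1.93e-05 and 0.00431 in limma.

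**Figure D3:**
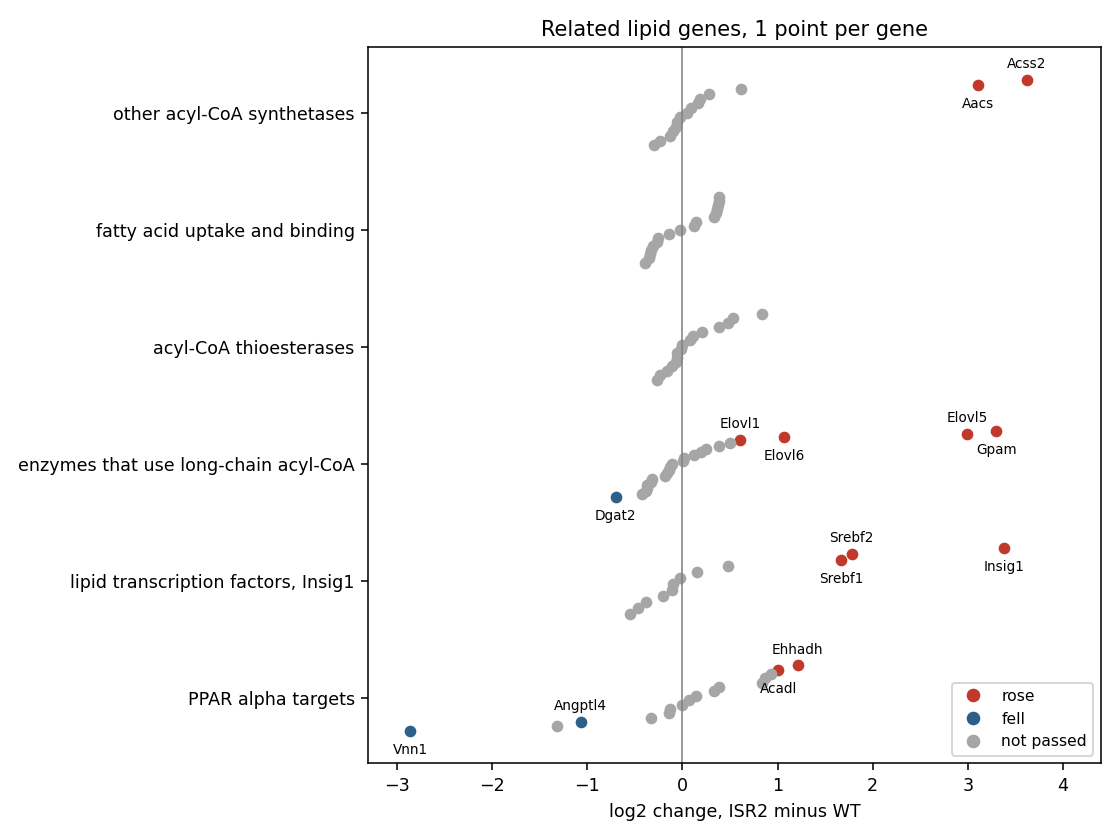
Log2 change, ISR2 minus WT, of the 95 measured genes of the 6 related lists, 1 point per gene in each list, spread vertically within each list for legibility. A gene in more than 1 list has a point in each. Red points rose, blue points fell and grey points did not pass an adjusted p of 0.05, and the 11 rises run from Elovl1 at 0.61 to Acss2 at 3.62.

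The genes with the profile nearest to each called gene were found by the root mean square difference of log2 values over the 6 arrays, after each gene's own mean was taken off. Nearest to Acsl4 were Insig1 (0.083), Mvk (0.097), the mevalonate kinase of cholesterol synthesis, and Acly (0.106), which makes cytosolic acetyl-CoA from citrate. Each of these 3 had a log2 change of 3.38, close to that of Acsl4. Nearest to Slc27a1 were Hif1a (0.051), the oxygen-regulated transcription factor, Pip4p1 (0.051) and Mamld1 (0.065), with log2 changes of 0.81, 0.82 and 0.79. Nearest to Slc27a4 were Itgb6 (0.038), an epithelial integrin subunit, 4732471J01Rik (0.051) and Edn1 (0.052), the endothelin precursor, with log2 changes of -0.64, -0.56 and -0.59. With 3 arrays a group this likeness rests mainly on the difference between the groups.

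**Figure D4:**
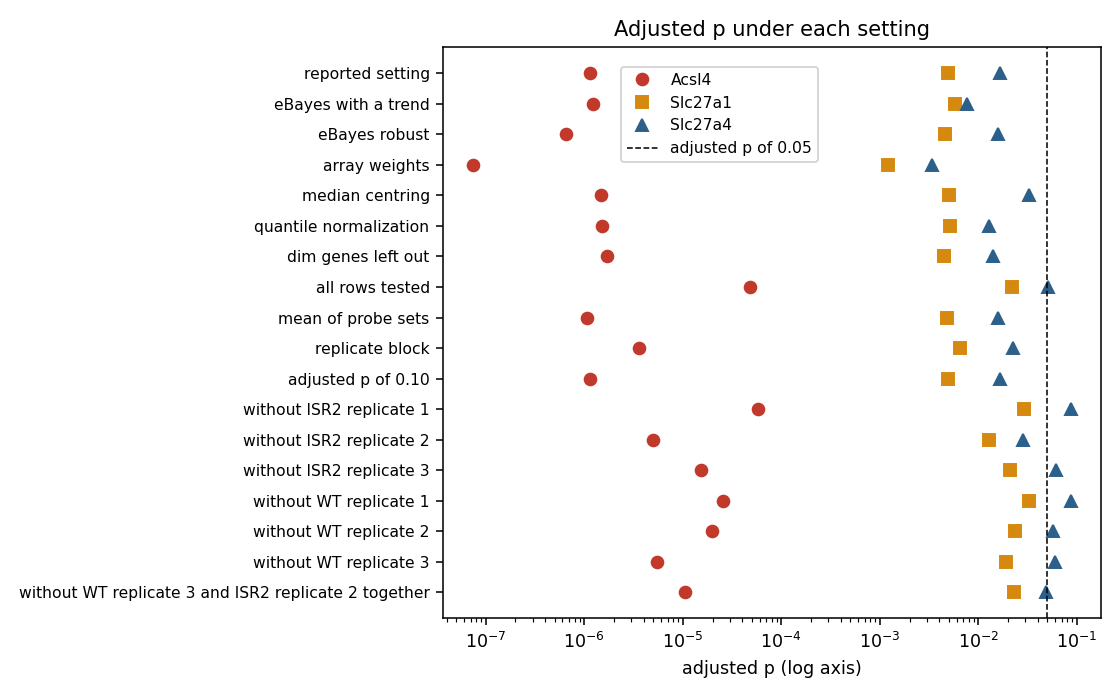
Adjusted p of Acsl4, Slc27a1 and Slc27a4 on a log axis under the reported setting and the 17 alternatives, with a dashed line at 0.05. Acsl4 (circles) and Slc27a1 (squares) stayed left of the line throughout, at up to 5.82e-05 and 0.0326, while Slc27a4 (triangles) lay right of it under 6 alternatives, at up to 0.0874.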

How the data were processed

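Total RNA of 6 samples was labelled with biotin and hybridised to Affymetrix whole-transcript arrays, per the labels' protocols. The authors summarised the arrays with RMA, per the submitters' processing notes, and deposited the log2 values; the sources used name no version of it. Array medians ran from 6.04 to 6.19, and with arrays the number of samples limits the precision.

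Of 35556 rows, 21789 had 1 symbol, 1621 several and 12146 none in the platform annotation, which can be old. Entrez numbers of 21698 matched RefSeq GRCm38.p6, with no symbol changed. The row with the highest mean over the 6 arrays stood for each of the 999 genes with several rows, which left 19938 genes. The array annotation names no genome build, and GRCm38.p6 was used for names and promoters only.

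ISR2 was compared with WT by limma 3.58.1 in R 4.3.3 (lmFit, eBayes; 2 groups, no covariate), with Benjamini-Hochberg adjustment over all genes and a threshold of 0.05. No label separates the animals, so p-values reflect only how far these arrays differ, which may be technical. The limma fit was tested on simulated data. Exact permutation tests used scipy 1.17.1, and figures matplotlib 3.10.9 in Python 3.11.15. The 17 alternatives changed the variance moderation, array weights, scaling, filter on dim genes, rows tested, row per gene, threshold, replicate block or arrays included. For a gene with 1 row, only array weights, scaling and the arrays included can alter the log2 change. The alternative threshold was looser and cannot lose a call.

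Named genes were all members, the 4 genes with the smallest p of each related list, Srebf2, Srebf1, Insig1 and Ppara, and the 3 nearest profiles of the 3 members with the smallest p, beside those said to be named after their values were seen, the marker genes called and other marker genes named beside them. The members and lists were chosen with earlier results of these data known. Acsl1, Acsl3 and protein sequences were not analysed here.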

Additional observations from a re-analysis of the deposited data

How the results depend on the processing

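The count of called genes was 602 in the reported limma fit. It was 1268 with array weights and 340 with all rows tested. The weights were 4.06, 0.4 and 0.67 for ISR2 replicates 1, 2 and 3 and 0.85 to 1.16 in WT. That setting therefore leans on ISR2 replicate 1. The count lay between 335 and 589 when 1 array was left out (335 without ISR2 replicate 1, 345 without WT replicate 1 and 388 without WT replicate 2). Arrays with the same number deviated together for replicates 2 and 3 (correlation of deviations 0.32 and 0.54), each of which matched its own number best, but not for replicate 1 (-0.02), and no label says what a number marks, so the numbers were not taken to pair the samples. The list mean of smooth muscle and stroma was highest in replicate 2 of both groups, at 9.17 in ISR2 and 9.79 in WT. With the replicate block 778 genes passed, among them 3 of the 8 members. Acsl4 and Slc27a1 kept their calls and directions under all 17 alternatives, with log2 changes of 3.43 to 3.58 and 0.78 to 0.87. Slc27a4 kept its direction under all 17 and its call under 11. These counts include the looser threshold, which repeats the reported fit and cannot lose a call. Only array weights, scaling and the arrays included can alter the log2 changes of Acsl4, Slc27a1 and Slc27a4. Of the other members, Acsf2 ranged from 0.36 to 0.54, Acsbg1 from -0.40 to -0.17 and Acsl6 from -0.19 to -0.05, with no call. Acsl5 changed sign once, at 0.02 without ISR2 replicate 1, in a range from -0.14 to 0.02 when 1 array was left out. Fabp2 changed sign at 0.01 with median centring, 0.01 with quantile normalization, 0.07 without ISR2 replicate 3 and 0.02 without WT replicate 2, in a range from -0.14 to 0.07 when 1 array was left out. The calls of Itgb6, 4732471J01Rik and Edn1 were lost without 5, 5 and 6 of the arrays in turn. Slc27a5 passed with array weights and without WT replicate 1. Acot1 passed with the replicate block and without WT replicate 3 and ISR2 replicate 2 together, and Acot10 passed with array weights. Of the genes of the related lists, calls among enzymes that use long-chain acyl-CoA numbered 5 as reported, 2 without ISR2 replicate 1, without WT replicate 1 or with all rows tested, and 3 without ISR2 replicate 3, WT replicate 2 or WT replicate 3. Calls among lipid transcription factors numbered 3 as reported and 5 with array weights, and among PPAR alpha targets 4 as reported and 7 with the replicate block. The call of Dgat2 was also lost with median centring and with all rows tested. The causes were not tested. The low signal of Acsl4, Slc27a5 and Acot1 in WT limits how well their folds are known.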
